A study of Mus musculus with 16 samples.

Results

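The regions described here are the gene bodies, with 50 kb to either side, of 10 mouse genes that encode transcription factors of the mesenchymal state: Twist1, Twist2, Snai1, Snai2, Zeb1, Zeb2, Prrx1, Runx1, Runx2 and Tead1. The genes were chosen by name and not by a measured value, and they are 10 of the 21938 protein-coding genes annotated on mm10 by GENCODE M21. Their windows held 330 of the 227116 ChIP-seq summits of the series and covered 0.0812% of the length of chromosomes 1 to 19, X and Y.

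ChIP-seq, in which DNA bound by a protein is pulled down with an antibody and sequenced, was performed on OG2 MEFs, mouse embryonic fibroblasts with a GFP reporter of Oct4 activity. All groups received retroviruses for Sox2 and Klf4 (SK) with 1 POU factor, and days were counted from the change to the chemically defined medium iCD1. The Oct4 antibody was used in the Oct4-SK cocktail at days 1, 5 and 7, in the Oct4defSox2-SK cocktail at days 1 and 5, and in the Oct4S151M-SK cocktail at day 1, and the Oct6 antibody was used in the Oct6M151S-SK cocktail at day 1. The Sox2 antibody was used in the Oct4-SK, Oct6-SK and Oct4defSox2-SK cocktails at days 1 and 5. Oct4defSox2 is an Oct4 with changes in the surface that meets Sox2, so that the pair no longer assembles on composite SoxOct DNA. In Oct4 S151M and Oct6 M151S the residue at the same position was exchanged, each for that of the other protein. The Oct6 M151S sample is named day 1 in its title and day 2 in its characteristics, and it is treated as day 1 here. Each of the 13 groups had 1 library, so the spread between replicates is unknown, no p-value is given, and the 95% intervals printed below cover counting error only. Introduced and endogenous Oct4 or Sox2 cannot be told apart with these antibodies, and the cultures were collected whole.

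Fibroblasts are mesenchymal cells, and on the way to pluripotency they pass through a mesenchymal-to-epithelial transition in which the program kept up by these factors is shut down. The TWIST, SNAI and ZEB proteins bind E-boxes, short DNA elements with the letters CANNTG, and are the classical drivers of the reverse, epithelial-to-mesenchymal, transition. PRRX1, the RUNX proteins and TEAD1 act in limb and skeletal mesenchyme, in blood and bone and at the end of the Hippo pathway, and their genes are active in fibroblasts. Summits record where a factor was enriched on DNA and not the RNA of the gene, so no expression of the 10 genes was measured here.

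Binding near the 10 genes was set out over the time course first with all factors pooled. When the summits of the 11 libraries of cocktails followed over several days were merged into 117 sites, 64 sites were bound at day 1 only, 40 at days 5 or 7 only and 13 at both (54.7%, 34.2% and 11.1%, against 54.6%, 31.9% and 13.6% of all merged sites). Oct4 itself had more of its sites at day 1 only (66.7%, interval 45.4% to 82.8%, against 44.9% of all Oct4 sites), with 17 summits near 8 of the genes at day 1, 6 summits near 6 genes at day 5 and 1 summit near Tead1 at day 7. Oct4defSox2 went from 51 summits near 7 genes at day 1 to 0 at day 5. Sox2 in the Oct4defSox2-SK cocktail showed the opposite order, with 5 summits near 2 genes at day 1 and 39 summits near 9 genes at day 5. Each of these counts moved with the size of its library, and the comparisons by share of the library are given further on.

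The sites on which the description turns are printed here from the RefSeq sequence of GRCm38, the assembly also called mm10. They were chosen as the site of each gene with summits of the most libraries, or as the site of a library's highest summit near the 10 genes, and each sequence is centred on 1 motif within 100 bp of at least 1 of its summits, sought in the order SoxOct, MORE, octamer, single Sox site and AP-1 site. Capitals mark that motif: MORE, a palindrome on which POU factors form dimers, with at most 1 mismatch; SoxOct, a Sox element followed by an octamer element, with at most 2 mismatches; the octamer ATGCAAAT; a single Sox site, CCATTGT or CCTTTGT; or an AP-1 site, TGACTCA, each on either strand.
Twist1, 19.4 kb upstream, MORE, chr12:33938285-33938385, plus strand: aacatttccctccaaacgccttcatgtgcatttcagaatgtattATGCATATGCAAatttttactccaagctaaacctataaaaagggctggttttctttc
Snai1, 31.2 kb upstream, SoxOct, chr2:167506966-167507066, plus strand: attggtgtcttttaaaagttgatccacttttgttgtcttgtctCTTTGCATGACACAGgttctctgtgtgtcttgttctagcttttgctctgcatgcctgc
Prrx1, 14.1 kb upstream, SoxOct, chr1:163327833-163327933, plus strand: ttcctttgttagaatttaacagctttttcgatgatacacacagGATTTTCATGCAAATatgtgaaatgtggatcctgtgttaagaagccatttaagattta
Runx1, intron, octamer, chr16:92680198-92680298, plus strand: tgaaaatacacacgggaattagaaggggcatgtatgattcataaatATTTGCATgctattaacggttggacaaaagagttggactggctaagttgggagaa
Runx1, intron, single Sox site, chr16:92739152-92739252, plus strand: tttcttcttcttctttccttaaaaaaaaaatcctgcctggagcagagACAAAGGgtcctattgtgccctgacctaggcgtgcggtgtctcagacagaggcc
Runx2, intron, AP-1 site, chr17:44770999-44771099, plus strand: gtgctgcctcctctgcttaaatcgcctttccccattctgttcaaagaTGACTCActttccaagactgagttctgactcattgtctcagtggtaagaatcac
Tead1, intron, octamer, chr7:112823651-112823751, plus strand: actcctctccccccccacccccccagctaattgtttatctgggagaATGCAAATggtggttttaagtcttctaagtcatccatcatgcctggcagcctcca
Tead1, intron, MORE, chr7:112855881-112855981, plus strand: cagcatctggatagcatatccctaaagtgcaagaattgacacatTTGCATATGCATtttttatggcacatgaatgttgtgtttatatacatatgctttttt
The Twist1 and Snai1 sites were bound by Oct4 at days 1 and 5, the Runx2 site by summits of 7 libraries, the first of the Tead1 sites by Sox2 in all 3 cocktails at day 5, and the last Tead1 site held the highest summit of Oct4 S151M near the 10 genes. The Prrx1 and Runx1 sites were each the one with most libraries at their gene or the highest summit of Sox2 in Oct6-SK near the 10 genes at day 5. The Snai1 sequence lies within the neighbouring gene Rnf114, where it covers 20 bases of an annotated exon.

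The windows differed in length, which bears on every count. They ran from 102 kb for Twist1 to 419 kb for Runx2, and 7 of the 10 were longer than 117 kb, the median window of all coding genes built the same way. Runx1, Runx2 and Tead1 together made up 48.4% of the summed window length and held 186 of the 330 summits (56.4%). The windows of Snai1, Runx2, Tead1 and Twist1 also hold other coding genes, namely Spata2 and Rnf114, Supt3, Rassf10 and Ferd3l, and a summit there was not assigned to a single gene by any measurement.

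**Figure D1:**
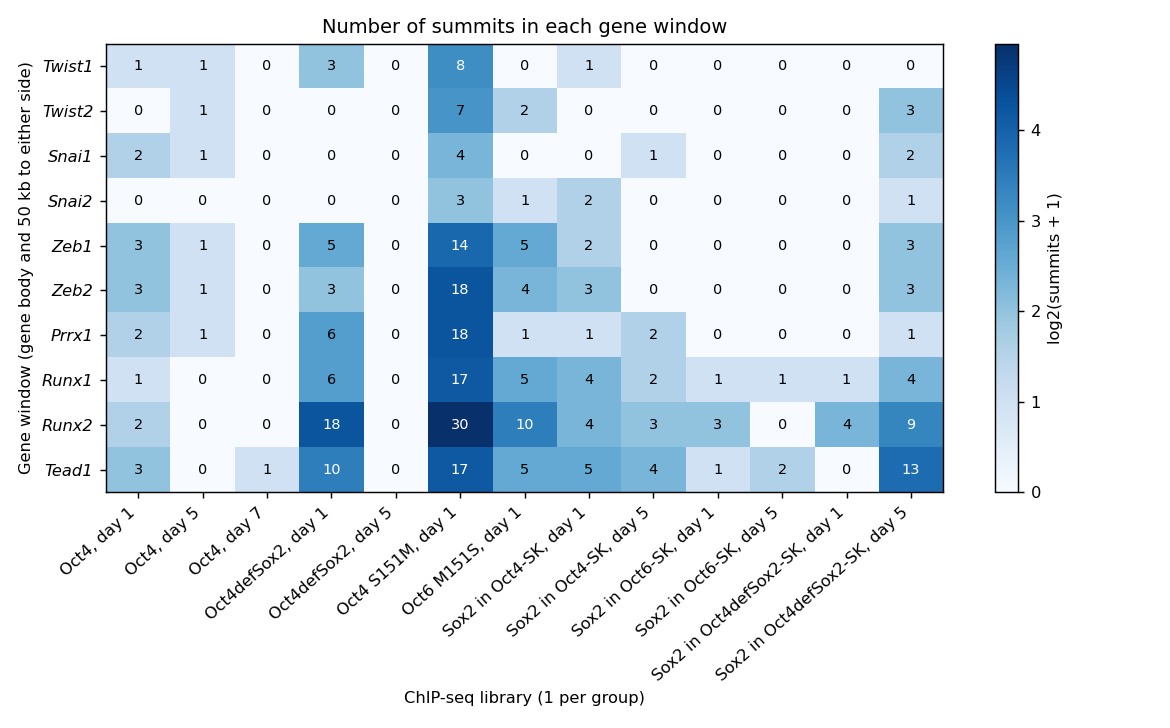
Number of summits (cells, coloured by log2 of the number plus 1) in the window of each of the 10 genes (vertical axis) in each of the 13 libraries (horizontal axis, 1 library per group). Oct4 S151M has 3 to 30 summits at every gene, while Oct4defSox2 at day 5 has 0 at every gene and Oct4 at day 7 has 1, at Tead1.

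The TWIST genes encode basic helix-loop-helix factors of mesoderm and neural crest. Twist1 (ENSMUSG00000035799.6, chr12:33957671-33959829, plus strand) held 14 summits, of which 8 were of Oct4 S151M, 3 of Oct4defSox2 at day 1, and 1 each of Oct4 at day 1, Oct4 at day 5 and Sox2 in Oct4-SK at day 1. Its other 8 libraries had none. Twist2 (ENSMUSG00000007805.4, chr1:91801461-91848028, plus strand) held 13 summits, of which 7 were of Oct4 S151M, 3 of Sox2 in Oct4defSox2-SK at day 5, 2 of Oct6 M151S and 1 of Oct4 at day 5. Among the 11 libraries followed over days, Twist1 had 3 sites bound at day 1 only, 1 at both times and 0 later only, while Twist2 had 0 at day 1 and 4 later only. These are 4 sites each, too few to set an order, and 3 of those of Twist2 were of Sox2 in Oct4defSox2-SK at day 5.

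At Twist1 the printed MORE site 19.4 kb upstream carried every Oct4 summit of the gene. Its score, the −log10 of the MACS2 p-value within a library, was 22.5 for Oct4 at day 1, 9.58 for Oct4 at day 5, 9.72 for Oct4defSox2 at day 1 and 75.5 for Oct4 S151M. No summit of Oct4 at day 7 or of Sox2 lay within 100 bp of it. Scores depend on the depth of a library, which the files do not give, so a higher score in another library is not by itself stronger binding. At Twist2 no site was shared by 2 libraries, and the only Oct4 summit, 24.5 kb downstream of the gene at day 5, had a score of 4.24. The highest Twist2 score, 317, was that of an intronic Oct4 S151M summit with a MORE.

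The SNAI genes encode zinc finger repressors, of which Snai1 and Snai2 (Slug) silence E-cadherin. Snai1 (ENSMUSG00000042821.7, chr2:167538195-167542814, plus strand) held 10 summits: 4 of Oct4 S151M, 2 of Oct4 at day 1, 1 of Oct4 at day 5, 1 of Sox2 in Oct4-SK at day 5 and 2 of Sox2 in Oct4defSox2-SK at day 5. Snai2 (ENSMUSG00000022676.7, chr16:14705852-14709385, plus strand) held 7 summits: 3 of Oct4 S151M, 1 of Oct6 M151S, 2 of Sox2 in Oct4-SK at day 1 and 1 of Sox2 in Oct4defSox2-SK at day 5. Neither Oct4 on any of the 3 days nor Oct4defSox2 on either day had a summit in the Snai2 window, and Snai2 had no site shared by 2 libraries. Its site with the highest score rank was an Oct6 M151S summit 4.59 kb downstream of the gene, with a score of 5.26.

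At Snai1 the printed SoxOct site, in Rnf114, was the only one of the 257 sites merged over all 13 libraries at which Oct4 was bound on days 1 and 5 together with Sox2 in Oct4-SK at day 5. The score was 7.00 for Oct4 at day 1 and 11.1 for Oct4 at day 5, 9.63 for Sox2 in Oct4-SK at day 5 and 24.7 for Oct4 S151M. Sox2 in Oct4-SK had no summit in the Snai1 window at day 1. Oct4defSox2 had none there on either day.

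The ZEB genes encode zinc finger and homeodomain repressors of epithelial genes. Zeb1 (ENSMUSG00000024238.15, chr18:5591860-5775467, plus strand) held 33 summits: 14 of Oct4 S151M, 5 of Oct4defSox2 at day 1, 5 of Oct6 M151S, 3 of Oct4 at day 1, 1 of Oct4 at day 5, 2 of Sox2 in Oct4-SK at day 1 and 3 of Sox2 in Oct4defSox2-SK at day 5. Zeb2 (ENSMUSG00000026872.17, chr2:44983632-45117395, minus strand) held 35 summits: 18 of Oct4 S151M, 3 of Oct4defSox2 at day 1, 4 of Oct6 M151S, 3 of Oct4 at day 1, 1 of Oct4 at day 5, 3 of Sox2 in Oct4-SK at day 1 and 3 of Sox2 in Oct4defSox2-SK at day 5. Zeb1 and Zeb2 had 7 and 8 sites at day 1 only, 3 and 3 later only, and 1 and 1 at both times. The last was bound by Oct4 on both days at Zeb1, and at Zeb2 by Oct4defSox2 at day 1 and Sox2 of the same cocktail at day 5. Sox2 in Oct6-SK had no summit at either gene on either day.

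The highest summit of Oct4 near the 10 genes at day 1 lay in an intron of Zeb1, 103 kb from its 5′ end, and at day 5 this site and the Snai1 site shared the highest score. The score was 28.8 at day 1 and 11.1 at day 5 for Oct4, and 7.33 for Oct4defSox2 at day 1, 23.5 for Oct4 S151M and 4.70 for Oct6 M151S. None of the 3 POU motifs was found within 100 bp of these summits. A single Sox site and a TWIST E-box were within 100 bp of the summits of Oct4 at day 1, Oct4defSox2 and Oct4 S151M, and neither was within 100 bp of those of Oct4 at day 5 and Oct6 M151S. At Zeb2 the Oct4 summits of day 1 and day 5 were at different places: 6.49, 8.52 and 4.96 were the day 1 scores, and the day 5 summit, 53.6 kb into the gene, had 9.58 and shared its site with Oct4 S151M (24.7). Of the 5 Zeb2 sites shared by 2 libraries, the one with the highest summed score ranks, 28.8 kb into the gene, had 14.5 for Oct4defSox2 and 134 for Oct4 S151M.

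Prrx1 encodes a paired-type homeodomain factor of limb bud and fibroblast mesenchyme. Prrx1 (ENSMUSG00000026586.16, chr1:163245119-163313710, minus strand) held 32 summits: 18 of Oct4 S151M, 6 of Oct4defSox2 at day 1, 1 of Oct6 M151S, 2 of Oct4 at day 1, 1 of Oct4 at day 5, 1 of Sox2 in Oct4-SK at day 1, 2 of Sox2 in Oct4-SK at day 5 and 1 of Sox2 in Oct4defSox2-SK at day 5. The printed SoxOct sequence, 14.1 kb upstream, lies in a cluster that was in use on both days in Oct4-SK. At day 1 the scores were 7.64 for Oct4, 8.73 for Sox2 in Oct4-SK, 19.8 for Oct4defSox2 and 81.7 for Oct4 S151M. At day 5 the Oct4 summit (6.70) lay 156 bp to one side of the day 1 site and the Sox2 summit (7.49) 139 bp to the other. With the 100 bp distance these were 3 sites, so Prrx1 counts as 6 sites at day 1 only, 4 later only and 0 at both. The marked SoxOct lay whole within 100 bp of the Oct4 S151M summit and of the Oct4 summit of day 5, and of no other summit of the cluster.

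The RUNX genes encode the DNA-binding subunits of core-binding factor, with roles in blood and fibroblasts (Runx1) and in bone (Runx2). Runx1 (ENSMUSG00000022952.17, chr16:92601466-92826149, minus strand) held 42 summits: 17 of Oct4 S151M, 6 of Oct4defSox2 at day 1, 5 of Oct6 M151S, 1 of Oct4 at day 1, and of Sox2 at days 1 and 5 there were 4 and 2 (Oct4-SK), 1 and 1 (Oct6-SK) and 1 and 4 (Oct4defSox2-SK). Runx2 (ENSMUSG00000039153.16, chr17:44495987-44814797, minus strand) held the most, 83: 30 of Oct4 S151M, 18 of Oct4defSox2 at day 1, 10 of Oct6 M151S, 2 of Oct4 at day 1, and of Sox2 at days 1 and 5 there were 4 and 3 (Oct4-SK), 3 and 0 (Oct6-SK) and 4 and 9 (Oct4defSox2-SK). Oct4 had no summit at either gene at day 5 or day 7, whereas Sox2 was found at both genes at day 5 in the Oct4-SK and Oct4defSox2-SK cocktails.

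Runx1 had a site of Sox2 at day 1 in all 3 cocktails, 86.8 kb into the gene. There Sox2 scored 13.4 in Oct4-SK, 8.59 in Oct6-SK and 6.50 in Oct4defSox2-SK, and Oct4defSox2 scored 7.87, Oct4 S151M 14.6 and Oct6 M151S 12.3, the highest Oct6 M151S score near the 10 genes. All 6 libraries at this site were of day 1. The printed single Sox site lies at its edge, within 100 bp of the summits of Sox2 in Oct4defSox2-SK and of Oct6 M151S and not of the other 4. The printed octamer of Runx1, 146 kb into the gene, was bound by Sox2 in Oct4-SK at day 1 (11.3) and by Sox2 in Oct6-SK at day 5 (17.6), and it also had summits of Oct4defSox2 (22.6), Oct4 S151M (16.0) and Oct6 M151S (2.65). A Sox2 summit of Oct4-SK at day 5 (5.29) lay 144 bp from it and was counted as a separate site.

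At Runx2 a pair of sites kept Sox2 from day 1 to day 5 in the Oct4defSox2-SK cocktail. At one of them, 23.2 kb downstream of the gene, Sox2 scored 8.23 at day 1 and 37.1 at day 5 in Oct4defSox2-SK and 23.0 at day 5 in Oct4-SK. Oct4 had no summit at either of them. The site of the most libraries, 7 of 13, lay 43.6 kb into the gene, beside the printed AP-1 site, with 19.1 for Oct4, 30.1 for Oct4defSox2, 58.1 for Oct4 S151M, 4.69 for Oct6 M151S, 9.46 for Sox2 in Oct4-SK and 7.36 for Sox2 in Oct6-SK, all at day 1, and 12.4 for Sox2 in Oct4defSox2-SK at day 5. The printed stretch holds a further TGACTCA after the marked one. The later of the pair was within 100 bp of 5 of the 7 summits, those of Oct4 and Oct4 S151M excepted, and the marked one of the Sox2 summits of day 1 alone. The highest Sox2 summit of Oct4defSox2-SK at day 1, with 25.8, lay 5.10 kb into Runx2 at a site with Oct4defSox2 (36.0) and Oct4 S151M (17.1).

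Tead1 encodes a TEA domain factor that binds DNA for the Hippo pathway co-activators YAP and TAZ. Tead1 (ENSMUSG00000055320.17, chr7:112679318-112906807, plus strand) held 61 summits: 17 of Oct4 S151M, 10 of Oct4defSox2 at day 1, 5 of Oct6 M151S, 3 of Oct4 at day 1, 0 at day 5 and 1 at day 7, and of Sox2 at days 1 and 5 there were 5 and 4 (Oct4-SK), 1 and 2 (Oct6-SK) and 0 and 13 (Oct4defSox2-SK). It had 11 sites at day 1 only, 12 later only and 3 at both times. The only Oct4 summit near the 10 genes at day 7 was in an intron of Tead1, 9.32 kb into the gene, with a score of 12.3, and the nearest site of another library, Oct4defSox2 at day 1, lay 105 bp away.

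The site of Sox2 at day 5 in all 3 cocktails, the single one among the 257 merged sites, was the printed octamer of Tead1, 144 kb into the gene. Sox2 scored 44.6 there in Oct4-SK, 16.6 in Oct6-SK and 23.8 in Oct4defSox2-SK at day 5. At day 1 Sox2 was found at this site in Oct4-SK alone, with 6.22, and Oct4defSox2 had 7.87. The octamer was within 100 bp of all 5 summits but that of Sox2 at day 1. Sox2 kept another Tead1 site from day 1 (10.6) to day 5 (9.11) in Oct6-SK, 172 kb into the gene. The printed MORE of Tead1, 177 kb into the gene, was bound at day 1 by Oct4 (18.8), Oct4defSox2 (90.6) and Oct4 S151M (978), and by no later library.

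**Figure D2:**
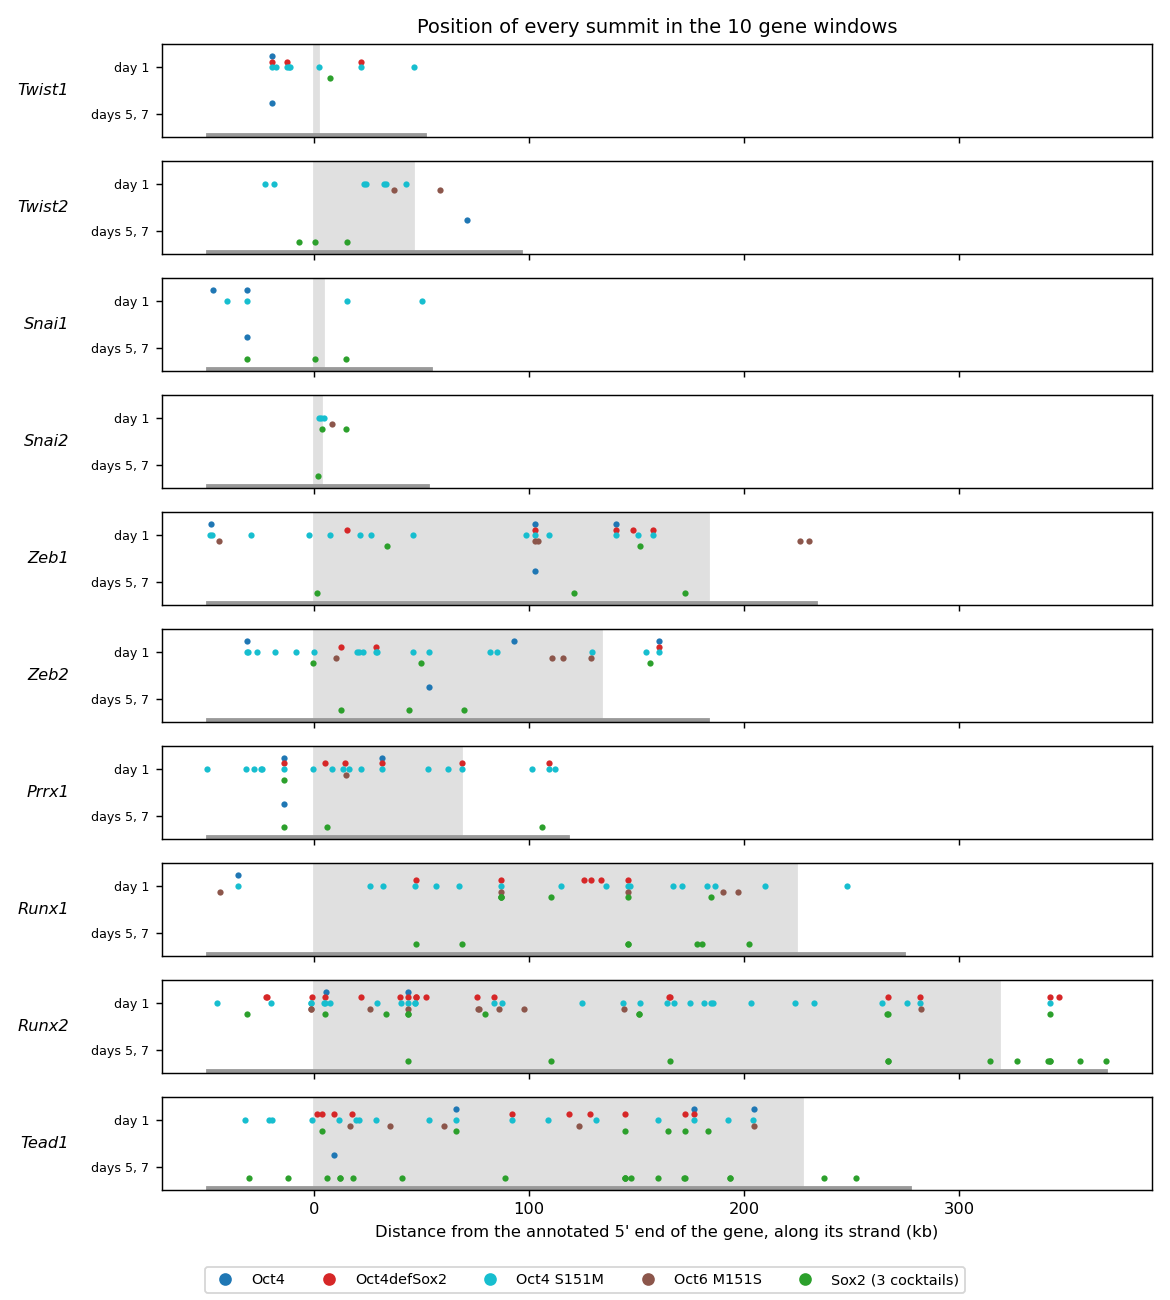
Each point is a summit, placed by its distance in kb from the annotated 5′ end of the gene along its strand (horizontal axis), for day 1 (upper row) and days 5 and 7 (lower row) of each gene, coloured by factor. Grey shading is the gene body and the bar at the bottom the window. Twist2 shows Oct4 S151M and Oct6 M151S points alone at day 1, and Tead1 shows Sox2 points along the gene body at the later days.

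Of the 257 sites merged over all 13 libraries, 162 (63.0%) lay in introns of the gene, 50 upstream, 33 downstream, 7 in non-coding parts of exons and 5 in coding exons, while the gene bodies made up 54.8% of the windows. Within 1 kb of an annotated start of any gene lay 21 of the 257, against 8.71% of the merged sites of the series, and 13 of these were at a start of the gene itself. At a start of the gene itself lay 0 of the 17, 6 and 1 Oct4 summits of days 1, 5 and 7. There lay 5 of 136 summits of Oct4 S151M, 5 of 39 of Sox2 in Oct4defSox2-SK at day 5 and 2 of 51 of Oct4defSox2 at day 1. Of Sox2 in Oct4-SK there were 2 of 22 at day 1 and 1 of 12 at day 5. The share over each whole library was not computed, so these counts are not compared. The highest summit at a start of the gene itself was of Oct4 S151M, 0.605 kb upstream of Prrx1, with a score of 177. The Sox2 summits inside coding exons of Twist2 and Snai1 at day 5 in Oct4defSox2-SK both had the low score of 4.18.

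Of the 257 sites, 220 had summits of 1 library and 37 of several, and 112 were of Oct4 S151M alone. Over the 172918 sites merged in the same way across the series, 84.2% had summits of 1 library and 47.5% were of Oct4 S151M alone. Tead1 and Runx2 held 11 and 8 of the sites shared by several libraries, Zeb2 held 5, Runx1 4, Zeb1 and Prrx1 3 each, Twist1 2, Snai1 1, and Twist2 and Snai2 held 0. No site had Oct4 at days 1, 5 and 7, against 6.23% of all merged Oct4 sites, with 1 summit of day 7 in the windows.

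The number of genes with a summit was read against all coding genes in the same library. At day 1 Oct4 had a summit in the windows of 8 of the 10 genes, against 29.8% of all coding genes, and at day 5 in 6 of 10, against 25.4%. At day 7 it was 1 of 10, against 19.0%. The share of the 10 genes was thus above that of all coding genes on the first 2 of these days, with windows that are mostly longer than the median. The 1 gene of day 7 is near the background, and it was 3 of 10 with 100 kb to either side. With a score of at least 10 it was 5 of 10 at day 1, against 20.1%, and 2 of 10 at day 5, against 13.2%.

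Oct4defSox2 had a summit at 7 of the 10 genes at day 1, against 63.0% of coding genes, and at 0 at day 5, against 6.62%. Oct4 S151M reached all 10, against 90.0%, and Oct6 M151S 8 of 10, against 69.0%. These are libraries in which most coding genes had a summit, apart from Oct4defSox2 at day 5, so a count near 10 is close to the background.

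Sox2 in Oct4-SK had a summit at 8 of the 10 genes at day 1, against 46.1% of coding genes, and at 5 at day 5, against 30.0%. In Oct6-SK it was 3 of 10 at day 1, against 10.5%, and 2 of 10 at day 5, against 14.3%. In Oct4defSox2-SK it was 2 of 10 at day 1, against 18.6%, and 9 of 10 at day 5, against 66.1%. In each cocktail the genes gained or lost followed the direction of all coding genes except in Oct6-SK, where the counts of 3 and 2 genes are too few to set an order.

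Densities take the length of the windows into account. Oct4 had 0.768 summits per 100 kb in the 10 windows at day 1, against 0.337 in the windows of all coding genes, 0.271 against 0.219 at day 5 and 0.0452 against 0.166 at day 7. Oct4defSox2 had 2.30 against 1.27 at day 1, Oct4 S151M 6.14 against 4.15 and Oct6 M151S 1.49 against 1.02. Oct4defSox2 at day 5 had 0 summits in the 10 windows, against 0.0439 per 100 kb, and 0 summits in these windows are too few to compare.

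Sox2 in Oct4-SK had 0.994 summits per 100 kb against 0.612 at day 1 and 0.542 against 0.266 at day 5. In Oct6-SK the values were 0.226 against 0.114 at day 1 and 0.136 against 0.118 at day 5. For Sox2 with Oct4defSox2 they were 0.226 against 0.227 at day 1 and 1.76 against 0.975 at day 5. The density of the 10 windows was that of the coding background in Oct4defSox2-SK at day 1 and above it in the other 5 Sox2 libraries. In Oct6-SK it rested on 5 summits at day 1 and 3 at day 5, where it was near the background. No test was made of these ratios.

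The change between days was measured as the share of a library's summits that fell in the 10 windows, because the libraries differed from 1038 to 101170 summits. For Oct4 the share was 0.207% at day 1 (17 of 8216 summits, Wilson interval 0.129% to 0.331%), 0.124% at day 5 (6 of 4854, 0.0567% to 0.269%) and 0.0275% at day 7 (1 of 3638, 0.00485% to 0.156%). From day 1 to day 7 it fell by 0.179 percentage points, and the Newcombe 95% interval of the difference, -0.306 to -0.0296, left out 0. With equal numbers of the strongest summits, a score of at least 10, or windows of 20 or 100 kb, the difference kept its sign and its interval took in 0. From day 1 to day 5 the difference was -0.0833 percentage points (-0.224 to 0.0819), which is within counting error.

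For Oct4defSox2 the share was 0.164% at day 1 (51 of 31070, 0.125% to 0.216%). At day 5 it was 0 of 1038, which allows a share of up to 0.289% by 3 counts and 0.369% by the Wilson bound, used for the difference. The difference of -0.164 percentage points had an interval of -0.216 to 0.207, so a loss near these genes beyond the general loss of Oct4defSox2 summits was not detectable at this depth.

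For Sox2 in Oct4-SK the share was 0.145% at day 1 (22 of 15222) and 0.206% at day 5 (12 of 5832), a difference of 0.0612 points (-0.0539 to 0.222). In Oct6-SK it was 0.154% (5 of 3242) and 0.112% (3 of 2673), a difference of -0.0420 points (-0.261 to 0.193), which turned positive without Runx2 or with a score of at least 10. Here too Tead1, with 1 and 2 summits, held as many as Runx2, with 3 and 0, and was not left out in turn. In Oct4defSox2-SK the share was 0.0863% (5 of 5794) and 0.181% (39 of 21563), a difference of 0.0946 points (-0.0308 to 0.177). Without Runx2, which held 4 of the 5 summits of day 1, that difference was 0.122 points (0.0313 to 0.183). Over the 2 days Tead1, with 0 and 13 summits, held as many as Runx2, with 4 and 9, and was not left out in turn. Among the 10 pairs of day 5 minus day 1 differences, no difference between factors or cocktails had an interval that left out 0.

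**Figure D3:**
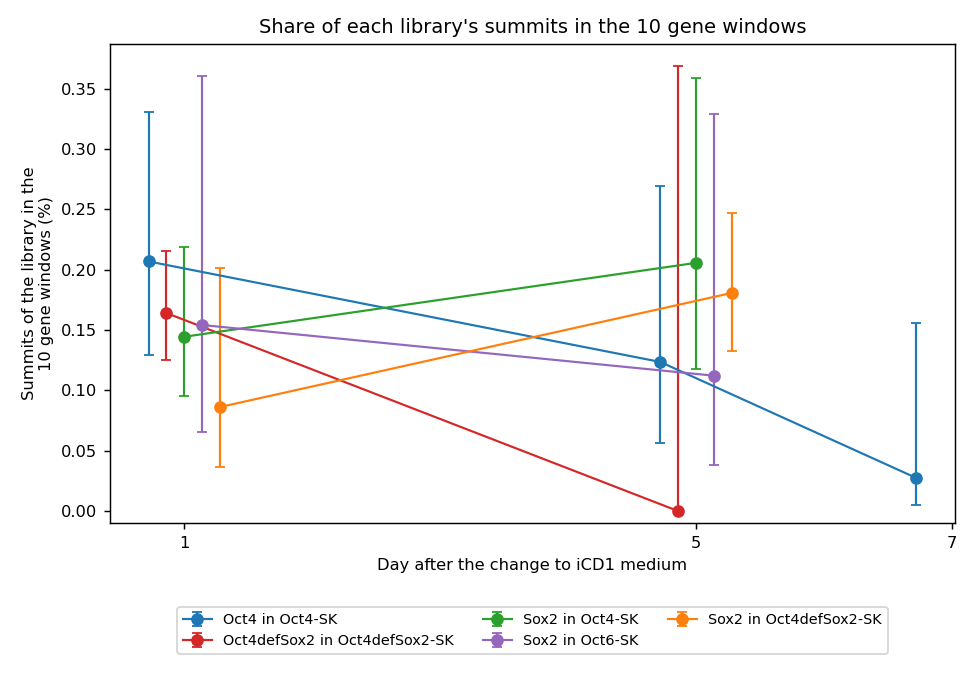
Share in percent of each library's summits that lies in the 10 gene windows (vertical axis) against the day after the change to iCD1 medium (horizontal axis), with points set slightly apart and bars for the Wilson 95% interval, 1 library per point. Oct4 goes from 0.207% at day 1 to 0.0275% at day 7, and for each of the 5 lines the intervals of the single days overlap.

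Whether the same places stayed bound was measured by the share of day 1 summits with a later summit within 100 bp. Oct4 kept 3 of its 17 day 1 summits at day 5 (17.6%, 6.19% to 41.0%), against 24.5% of all its day 1 summits. At day 7 it kept 0 of 17, which allows up to 17.6% by 3 counts and 18.4% by the Wilson bound, against 13.1%. Read from the other side, 3 of the 6 Oct4 summits of day 5 had been bound at day 1 (50.0%, 18.8% to 81.2%), against 41.5%. The 3 kept sites were those of Twist1, Snai1 and Zeb1 described above, and each of these intervals held the share over the whole library.

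Oct4defSox2 kept 0 of its 51 day 1 summits at day 5, which allows up to 5.88% by 3 counts and 7.00% by the Wilson bound, against 2.35% over the library. Sox2 in Oct4-SK kept 2 of 22 (9.09%, 2.53% to 27.8%), against 7.23%, at Runx2 and Tead1. Sox2 in Oct6-SK kept 1 of 5 (interval 3.62% to 62.4%), against 10.1%, at Tead1. Sox2 in Oct4defSox2-SK kept 2 of 5 (40.0%, 11.8% to 76.9%), against 32.7%, both at Runx2.

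The later Sox2 summits were mostly at places without a day 1 summit. In Oct4-SK 2 of 12 day 5 summits had been bound at day 1 (16.7%, 4.70% to 44.8%), against 18.9%, and in Oct4defSox2-SK 2 of 39 (5.13%, 1.42% to 16.9%), against 8.79%. Of the 12 day 5 summits in Oct4-SK, 5 were also bound by Sox2 in Oct4defSox2-SK at day 5 (41.7%, 19.3% to 68.0%), against 38.3%. The shares at the 10 genes were all within counting error of those of the whole library.

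**Figure D4:**
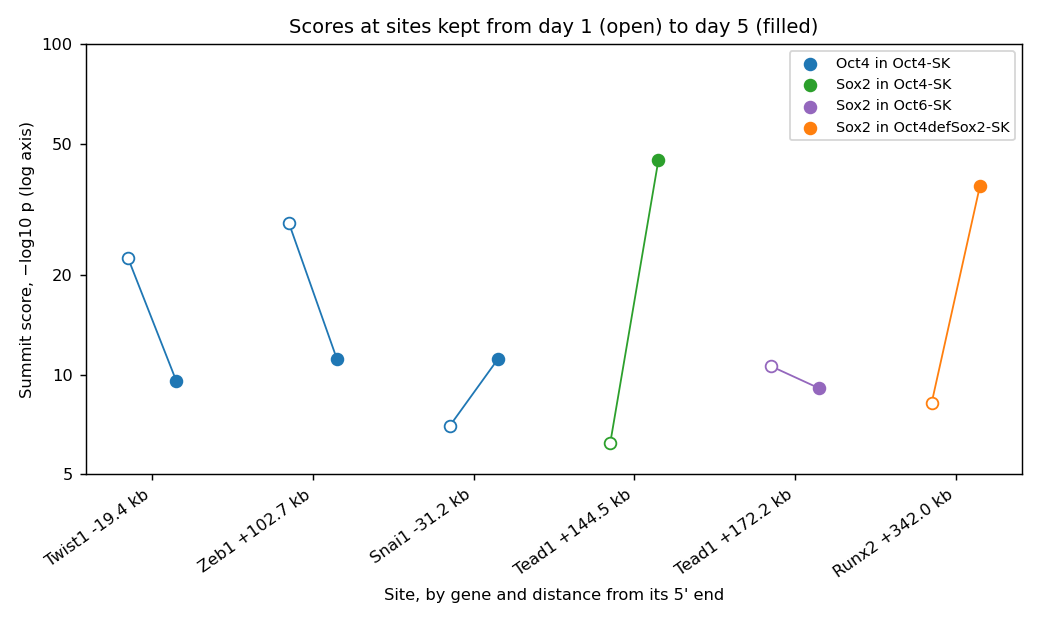
Score (−log10 of the MACS2 p-value, log axis) at day 1 (open circle) and day 5 (filled circle) at 6 of the 7 sites near the 10 genes that the same factor kept in the same cocktail, named by gene and distance from the 5′ end in kb. Oct4 scores are lower at day 5 at Twist1 (22.5 to 9.58) and Zeb1 (28.8 to 11.1) and higher at Snai1 (7.00 to 11.1), and Sox2 scores are higher at day 5 except in Oct6-SK.

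At day 1 the other POU proteins covered part of the Oct4 sites. Of the 17 Oct4 day 1 summits, 7 had a summit of Oct4defSox2 (41.2%, 21.6% to 64.0%), against 57.4% over all Oct4 day 1 summits, and 10 had one of Oct4 S151M (58.8%, 36.0% to 78.4%), against 78.2%. Sox2 in Oct4-SK was found at 3 of the 17 (17.6%, 6.19% to 41.0%), at Prrx1, Runx2 and Tead1, against 19.8%. At day 5, 0 of the 6 Oct4 summits had Oct4defSox2, against 10.6%, and 0 of 6 allows a share of up to 50.0% by 3 counts and 39.0% by the Wilson bound. The number of shared Oct4 sites moved with the number of summits of the other library, since with equal numbers of the strongest summits Oct4 S151M was found at 5.88% of the Oct4 sites and Oct4defSox2 at 17.6%.

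Among the modified factors, 16 of the 51 Oct4defSox2 day 1 summits had Oct4 S151M (31.4%, 20.3% to 45.0%), against 43.5%, and 4 of 51 had Sox2 of the same cocktail at day 1 (7.84%, 3.09% to 18.5%), against 8.73%. Of the 33 Oct6 M151S summits 5 had Oct4 S151M (15.2%, 6.65% to 30.9%), against 7.10%. Oct6 M151S was called at a looser threshold, with scores down to 2.30 where the other libraries began at about 4.00, and 7 of its 33 summits had a q-value below 0.05, as did 21.2% of that whole library, compared with all 136 of Oct4 S151M and 100% of that library. The fold enrichment over background in the deposited peak tables was 1.98 to 4.41 (median 2.28, against 2.42 over the library) for the Oct6 M151S summits and 3.32 to 124 (median 8.24, against 7.32) for those of Oct4 S151M.

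Early and later sites were then set side by side for each factor. Over the 11 libraries the 117 merged sites divided into 54.7% at day 1 only (45.7% to 63.4%), 34.2% later only (26.2% to 43.2%) and 11.1% at both (6.61% to 18.1%), and the 71487 merged sites of the whole series into 54.6%, 31.9% and 13.6%. Pooled in this way, where a site of both times can be of different factors, the 10 genes had the division of the whole series within counting error. For Oct4 alone 14 of 21 sites were of day 1 only (66.7%, 45.4% to 82.8%), against 44.9% of all Oct4 sites, 4 were later only (19.0%, against 37.7%) and 3 were at both (14.3%, against 17.4%). The lower bound of the day 1 interval of Oct4 lay just above the share over all Oct4 sites, while its later-only interval (7.67% to 40.0%) held that share. These divisions were not recomputed with the alternative settings.

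For Oct4defSox2 all 51 sites were of day 1 only, against 96.7% of all its sites. For Sox2 in Oct4-SK 20 of 32 sites were of day 1 only, 10 of day 5 only and 2 of both days (62.5%, 31.2% and 6.25%, against 70.8%, 23.7% and 5.51%). For Sox2 in Oct6-SK the 7 sites divided into 4, 2 and 1 (57.1%, 28.6% and 14.3%, against 52.148%, 41.998% and 5.854%). The interval of each of these shares held that of all its sites, and 7 sites are too few to tell them apart. For Sox2 in Oct4defSox2-SK 3 of 42 sites were of day 1 only, 37 of day 5 only and 2 of both (7.14%, 88.1% and 4.76%, against 15.3%, 77.3% and 7.43%).

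**Figure D5:**
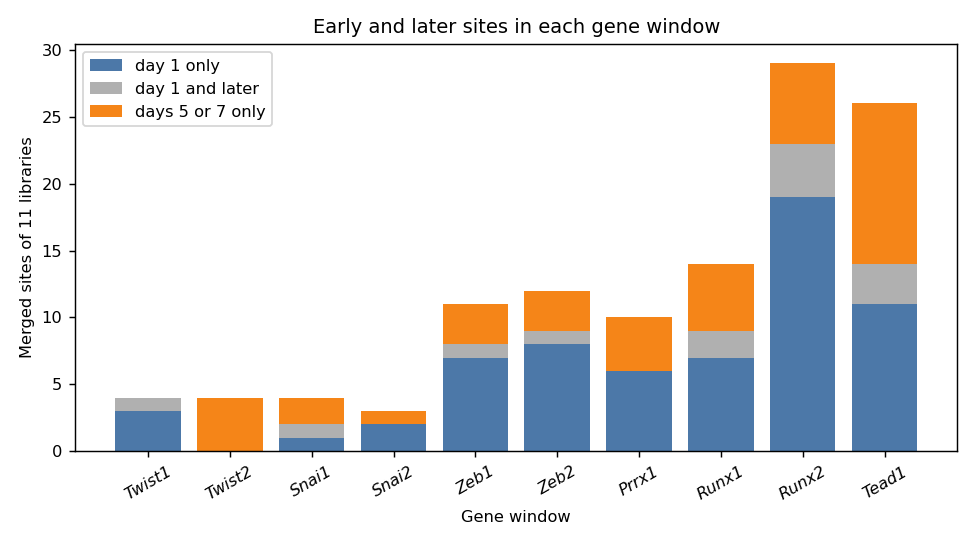
Number of merged sites of the 11 libraries (vertical axis, 100 bp merging) in each gene window (horizontal axis), stacked by the days on which any of these libraries had a summit. Runx2 has 19 of 29 sites at day 1 only, Tead1 has 12 of 26 sites at days 5 or 7 only, and Twist2 has all 4 of its sites at the later days.

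Motifs were searched within 100 bp of each summit on both strands, as the strings given with the sequences and, for KLF factors, GGGCGGGGC, GGGCGTGGC, GGGTGGGGC or GGGTGTGGC, and a match describes the letters and not a used site. At least 1 of the 3 POU motifs (MORE, SoxOct, octamer) was found at 5 of 17 Oct4 summits of day 1 (against 29.6% of the library) and 3 of 6 of day 5 (35.6%), 11 of 51 of Oct4defSox2 (20.6%), 42 of 136 of Oct4 S151M (33.6%) and 2 of 33 of Oct6 M151S (4.14%). The octamer, which can overlap MORE and SoxOct, was found at 21.6% of the Oct4defSox2 summits of day 1 near the 10 genes (11 of 51, 12.5% to 34.6%), against 8.83% of all its summits and 1.59% of regions 2 kb away. For Oct4 at day 1 it was 23.5% (4 of 17, 9.56% to 47.3%) against 8.48%, and for Oct4 S151M 12.5% (17 of 136, 7.95% to 19.1%) against 6.82%. Of 120 pairs of motif and library, 9 had an interval above the share of the whole library, 6 of them for the octamer, and 0 had one below it, and the same sites recur in several of these libraries. The other 3 were the KLF site and the CAGGTG E-box at the 1 Oct4 summit of day 7 and the AP-1 site at 9 of 39 Sox2 summits of Oct4defSox2-SK at day 5 (23.1%, 12.6% to 38.3%, against 12.1%).

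MORE was found at 19.1% of Oct4 S151M summits near the 10 genes (26 of 136, 13.4% to 26.5%), against 24.5% of all its summits and 0.814% of regions 2 kb away. For Oct4 at day 1 it was 3 of 17 and for Oct4defSox2 3 of 51, against 10.5% and 7.12%. SoxOct was found at 2 of 17 Oct4 summits of day 1 and 2 of 6 of day 5, against 15.1% and 19.6%, and at 0 of 22 Sox2 summits of Oct4-SK at day 1 and 2 of 12 at day 5 (interval 4.70% to 44.8%), against 4.17% and 4.83%. A single Sox site was found at 5 of 22 of the former and 6 of 12 of the latter, against 18.9% and 32.6%. Counted by merged site, since a motif is met again in each library bound there, MORE was seen at 9 sites of Runx2 and 5 of Zeb2. It was seen at 3 each of Zeb1, Prrx1 and Runx1, 2 of Twist2, 1 each of Twist1 and Tead1, and 0 of Snai1. SoxOct was seen at 3 sites each of Runx2 and Prrx1, 2 of Twist1, 1 each of Snai1, Zeb1, Runx1 and Tead1, and 0 of Twist2 and Zeb2. Of the Prrx1 sites with SoxOct, 2 share the printed motif. None of the 3 POU motifs was found at the 7 summits of Snai2.

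The motifs of the 10 factors themselves were also counted, over the 11 libraries followed over several days and thus without Oct4 S151M and Oct6 M151S. The SNAI and ZEB E-box, CAGGTG, was found at 5.00% of the 100 summits of day 1 and 8.20% of the 61 later ones, against 5.52% and 8.98% of all summits of these libraries and 10.8% and 12.7% of regions 2 kb away. The TWIST E-box, CATATG or CATCTG, was found at 19 of the 100 and 11 of the 61, against 24.3% and 20.8%. The former of its strings lies within the usual form of MORE. The RUNX site, TGTGGTT, was found at 5.00% and 6.56%, against 7.20% and 5.67%, and the TEAD site, GGAATG, at 14.0% and 11.5%, against 13.7% and 15.5%. The early and later summits near the 10 genes held these motifs at about the shares of the whole libraries.

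Related genes were counted with the same windows. Among 12 family members and partners (Snai3, Prrx2, Runx3, Tead2, Tead3, Tead4, Cbfb, Yap1, Wwtr1, Tcf3, Tcf4 and Tcf12), Oct4 had a summit at 4 at day 1, 6 at day 5 and 4 at day 7, against the 29.8%, 25.4% and 19.0% of all coding genes. Wwtr1, which encodes TAZ, Tead4 and the E-protein genes Tcf4 and Tcf12 were the 4 at day 1 and at day 7. Oct4defSox2 had summits at 8 and 2 of the 12 at days 1 and 5 (against 63.0% and 6.62%), Oct4 S151M at 11 (90.0%) and Oct6 M151S at 11 (69.0%). Sox2 at days 1 and 5 was at 7 and 6 in Oct4-SK (against 46.1% and 30.0%), 5 and 4 in Oct6-SK (10.5% and 14.3%) and 3 and 8 with Oct4defSox2 (18.6% and 66.1%), so the last cocktail had more of these genes at day 5, as it did of all coding genes.

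Among 14 effector genes of mesenchymal cells (Vim, Fn1, Cdh2, Acta2, Tagln, Thy1, Pdgfra, Pdgfrb, Mmp2, Mmp14, Postn, Sparc, S100a4 and Cd44), Oct4 had a summit at 8 at day 1, 5 at day 5 and 8 at day 7, against 29.8%, 25.4% and 19.0% of all coding genes. At day 7 these were Fn1, Cd44, S100a4, Pdgfra, Mmp14, Cdh2, Pdgfrb and Acta2. Oct4defSox2 had summits at 10 at day 1 and 0 at day 5 (against 63.0% and 6.62%), Oct4 S151M at 14 (90.0%) and Oct6 M151S at 13 (69.0%). Sox2 at days 1 and 5 was at 13 and 6 in Oct4-SK (against 46.1% and 30.0%), 4 and 4 in Oct6-SK (10.5% and 14.3%) and 4 and 12 with Oct4defSox2 (18.6% and 66.1%). At day 7 the 8 of 14 effector genes and the 1 of 10 transcription factor genes stand against 19.0% of all coding genes, and the difference between the lists was not tested.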

How the data were processed

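The authors aligned paired-end ChIP-seq reads to mm10 with Bowtie2 2.2.5 (version from the submitters' processing notes), removed reads of low mapping quality and duplicates with SAMtools, and called summits per library with MACS2. The deposited score of a summit is the −log10 of its p-value and is not scaled across libraries. Peak tables deposited for the S151M and M151S libraries add, for each peak, a −log10 q-value and the ratio of enrichment over background (fold enrichment). Reads, tracks and inputs were not analysed here, and the files used give no read depth. The members, gene lists, motifs and comparisons were chosen with earlier results of these data known.

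Windows were the GENCODE M21 gene and 50 kb to either side, and summits within 100 bp of the next were merged into sites, the merging distance of the study. All 10 genes were named. Named sites were, per gene, the site with the most libraries (ties by the sum of within-library score percentiles), sites with Oct4 on all 3 days, sites with Sox2 at day 5 in 3 cocktails, and the highest summit of each library near the 10 genes. Other sites were chosen after their values had been seen, and 1 named site is not reported here. Past a chromosome end lay 0 summits, and 154 on unplaced sequence entered no motif share. Shares carry Wilson intervals and differences Newcombe 95% intervals. The alternatives were a minimum score of 10 (or of 4 for Oct6 M151S), the strongest summits in equal numbers, 1 summit per peak, windows of 20 or 100 kb, sharing within 50 or 250 bp, and leaving out the gene with most summits. Among genes with equal numbers, only the first in the order named at the start was left out. Python 3.11.15, numpy 2.4.6, pandas 2.3.3 and matplotlib 3.10.9 were used, and the procedure was tested on simulated data.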

Additional observations from a re-analysis of the deposited data

How the results depend on the processing

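No paired analysis was possible because each group had 1 library. Of 36 recomputed differences between days, 28 kept their sign and whether their interval took in 0, and 1, that of Oct4 between days 5 and 1 with equal numbers of top summits, came to 0. The Oct4 difference between days 7 and 1 had an interval that took in 0 with a score of at least 10 (-0.0694 points), when the strongest summits were taken in equal numbers (-0.137), and with windows of 20 kb (-0.106) or 100 kb (-0.173). The Sox2 difference in Oct6-SK turned positive with a score of at least 10 (0.0417) and without Runx2 (0.0505), and that in Oct4defSox2-SK left out 0 without Runx2 (0.122). In both cocktails Tead1 held as many Sox2 summits over the 2 days as Runx2 and was not left out in turn. The causes were not tested.

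Of 79 recomputed shares of shared sites, 70 stayed within the interval of the first value. With a score of at least 10, day 1 sites kept by Sox2 in Oct6-SK came to 0, Oct4 day 1 sites with Oct4 S151M to 83.3% and those with Sox2 in Oct4-SK to 0. When the strongest summits were taken in equal numbers, 17.6% of Oct4 day 1 sites had Oct4defSox2 and 5.88% had Oct4 S151M. Within 50 bp, Sox2 in Oct6-SK kept 0 and Oct4 day 1 sites had Sox2 in Oct4-SK at 5.88%, and within 250 bp they had Oct4 S151M at 88.2%. Without Runx2, Sox2 in Oct4defSox2-SK kept 0. For Oct4 day 5 sites with Oct4defSox2, equal numbers left no Oct4 summit near the genes and gave no value. Of the 40 recomputed numbers of genes with a summit, 32 stayed within 1.5 times. Oct6 M151S had 7 genes with a score of at least 4 and 1 with at least 10.

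Single libraries, a depth that the files do not give and lists without signal limit every statement here, since a place without a summit is one without a call. Counts of 1 to 6 summits, as for Oct4 at days 5 and 7 and Sox2 in Oct6-SK, leave intervals wider than most differences between days.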
